A study of Mus musculus with 3 samples.

Results

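Transcription factors of the osteoblast lineage were followed in single cells of the embryonic mouse soft palate. The 9 genes were *Runx2*, *Sp7*, *Dlx3*, *Dlx5*, *Dlx6*, *Msx2*, *Atf4*, *Runx1* and *Runx3*. Each was named by symbol and found on its own row among the 32285 genes counted. They were chosen with earlier results of these data known. Their level was read over mesenchymal cells that carried 0, 1–2 or at least 3 summed UMIs (unique molecular identifiers, each counting 1 captured transcript) of 3 genes of bone-forming cells, *Alpl*, *Smpd3* and *Ibsp*. None of the 9 took part in that staging or in the choice of cells.

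The soft palate, the posterior part of the palate that later moves with the pharyngeal muscles, was dissected at E14.5 from C57BL/6 embryos. There were 2 control libraries and 1 *Osr2-Cre;Alk5fl/fl* library (called the mutant below), in which *Tgfbr1*, the type I TGF-β receptor formerly named *Alk5*, is flanked by loxP sites and Cre is expressed from *Osr2*, a gene of the palatal mesenchyme. The controls carried floxed *Tgfbr1* on one or both alleles without Cre, so that the Cre allele itself also separates the groups. The number of embryos in each library was not given in the sources used here, and nothing says that the controls were separate tissue, so that p-values measure only the spread between these libraries and may be technical.

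Intramembranous bone forms directly from mesenchyme, as the palatine bone does beside the soft palate. RUNX2 starts the osteoblast programme and SP7 (osterix), which acts downstream of RUNX2, is needed to complete it, while the related RUNX1 and RUNX3 are better known from blood, epithelium, cartilage and sensory neurons. DLX3, DLX5, DLX6 and MSX2 are homeodomain factors of the facial primordia that also act on bone genes, and ATF4 is a widely expressed factor of amino acid supply and stress response that osteoblasts need for collagen synthesis. RUNX proteins bind the core ACCACA and can act on their own genes.

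The distal (upstream) promoters of the 3 RUNX genes are printed because all 3 hold that core more than once, from 250 bases before to 50 bases after the start (RefSeq, GRCm38.p6, 5′ to 3′ on the gene's strand, with ACCACA in capitals). They lie at chr17:44814578-44814877 on the minus strand for *Runx2*, at chr16:92826025-92826324 on the minus strand for *Runx1* and at chr4:135120395-135120694 on the plus strand for *Runx3*.
Runx2: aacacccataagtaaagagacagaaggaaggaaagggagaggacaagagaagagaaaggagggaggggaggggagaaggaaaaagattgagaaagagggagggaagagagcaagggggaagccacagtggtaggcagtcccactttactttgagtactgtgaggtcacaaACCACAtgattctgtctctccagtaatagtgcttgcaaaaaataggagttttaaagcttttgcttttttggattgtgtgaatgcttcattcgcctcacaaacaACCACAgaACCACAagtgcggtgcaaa
Runx1: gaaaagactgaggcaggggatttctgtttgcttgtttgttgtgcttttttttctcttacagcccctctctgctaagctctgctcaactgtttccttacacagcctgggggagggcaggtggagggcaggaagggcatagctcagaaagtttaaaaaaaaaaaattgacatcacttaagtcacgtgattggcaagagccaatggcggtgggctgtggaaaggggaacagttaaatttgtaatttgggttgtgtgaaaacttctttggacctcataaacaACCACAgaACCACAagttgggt
Runx3: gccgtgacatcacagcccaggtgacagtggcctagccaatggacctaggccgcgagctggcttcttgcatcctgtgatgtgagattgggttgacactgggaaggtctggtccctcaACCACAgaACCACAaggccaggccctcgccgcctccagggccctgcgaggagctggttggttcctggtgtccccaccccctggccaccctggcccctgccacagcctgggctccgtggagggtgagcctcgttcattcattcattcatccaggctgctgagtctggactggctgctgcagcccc
On both strands ACCACA or its reverse complement TGTGGT was found 3 times in the *Runx2* promoter, 2 times in that of *Runx1* and 2 times in that of *Runx3*. Among 32851 mouse promoters of the same length, 16.8% held at least 1 match, 1.81% at least 2 and 0.183% at least 3. Each of the 3 carries a pair of cores set apart by the same short spacer, which the letters show. The second promoters of *Runx1* and *Runx3*, at chr16:92697280-92697579 and chr4:135152295-135152594, and those of *Msx2* and *Atf4* held 0. A match describes these letters and is not a measured binding site.

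In GRCm38 (GENCODE vM21) *Runx2* spans chr17:44495987-44814797, where antisense transcripts and *Supt3* overlap it, and *Sp7* spans chr15:102356606-102367182. *Dlx6* (chr6:6863334-6868568) and *Dlx5* (chr6:6877805-6882085) are neighbours on opposite strands, and *Dlx6os1* overlaps *Dlx6* on the other strand. *Dlx3* lies at chr11:95120119-95125296, *Msx2* at chr13:53466884-53473074, *Atf4* at chr15:80255184-80257541, *Runx1* at chr16:92601466-92826149 and *Runx3* at chr4:135120652-135177990. The 3′ kit keeps the strand of a transcript.

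The libraries held 22624711, 27814907 and 63505144 UMIs over 2816, 4067 and 8690 barcodes, of which 2056, 3689 and 7515 cells were kept (control 1, control 2 and mutant, the order used throughout). Mesenchymal clusters held 1499, 2840 and 5691 of them. The libraries shared 18 to 49 barcodes in each pair. *Tgfbr1* stood at 54.7, 59.6 and 49.7 CPM (UMIs scaled to a total of 1000000 over all genes of the same cells) in mesenchyme, and counting at the 3′ end does not check a deletion elsewhere in the gene. Control 1 stood apart from the other libraries: without integration 1134 of the 1188 cells of 1 mesenchymal cluster came from it, and its cells were deeper (median 7920 UMIs against 4776.5 and 4638). Values are therefore given for each library.

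A staging count of at least 3 was found in 130, 67 and 657 mesenchymal cells, or 8.67%, 2.36% and 11.5%. A count of 1–2 was found in 295, 333 and 945 cells and a count of 0 in 1074, 2440 and 4089. Deeper cells reach a count more readily: the median depth rose from 7396.5, 4558 and 3839 UMIs at 0 to 12802, 10161 and 10205 at 3 or more. With each cell thinned to 2500 UMIs (28, 438 and 909 shallower mesenchymal cells left out), the share at 3 or more was 2.92%, 1.25% and 5.71%, with the mutant highest in both readings.

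**Figure D1:**
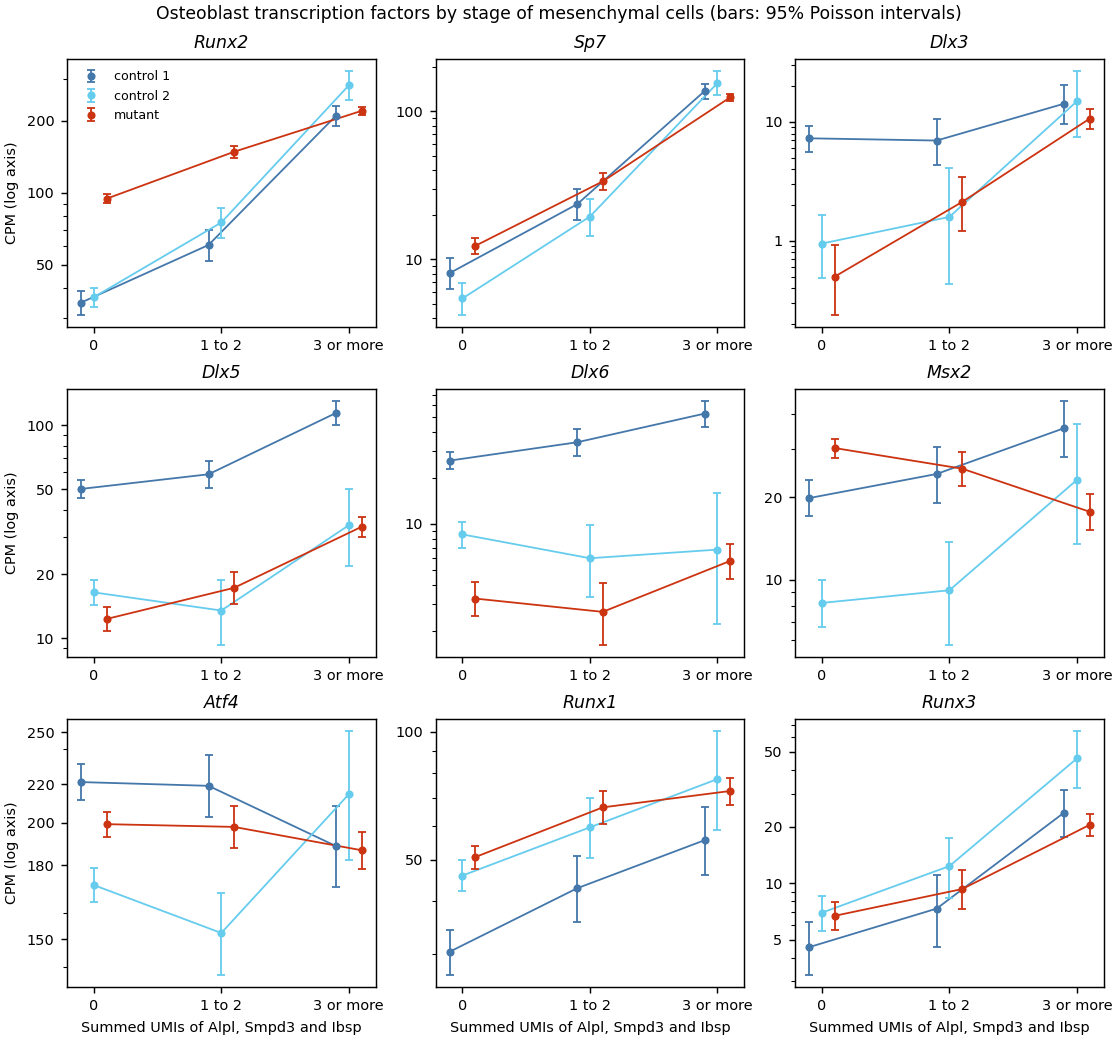
Level of the 9 factors (CPM, log axis) in mesenchymal cells with 0, 1–2 and at least 3 summed UMIs of *Alpl*, *Smpd3* and *Ibsp*, 1 line for each library; bars are exact 95% Poisson intervals, which cover counting error only. *Sp7* ends in the 3 libraries at 124 to 155 CPM, *Runx2* starts from 34.7 and 36.6 in the controls and 94.5 in the mutant, and *Atf4* stays between 152 and 221.

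Of the factors that rose along the staging count, *Runx2* and *Sp7* had the highest levels at a count of 3 or more. *Runx2* stood at 34.7, 36.6 and 94.5 CPM at a count of 0, at 60.5, 75.1 and 148 at 1–2 and at 210.1, 281 and 220.0 at 3 or more. The mutant was above both controls at the first 2 steps and between them at the last. *Sp7* went from 8.09, 5.46 and 12.3 CPM through 23.6, 19.5 and 33.6 to 137, 155 and 124. Both factors were higher at each step in each library, in all by 6.05, 7.68 and 2.33 times for *Runx2* and by 16.9, 28.4 and 10.1 times for *Sp7* from the first to the last.

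The steps were tested with edgeR's quasi-likelihood test on the 9 sums (3 libraries by 3 staging counts) with the library as a term, adjusted by Benjamini-Hochberg over 14622 genes. Between 3 or more and 0, 7 of the 9 factors were higher and 0 were lower, where 10.7% of all genes tested were called higher and 8.66% lower. *Sp7* had the largest difference, 3.99 ± 0.19 on the log2 scale (SE, adjusted p = 4.23e-11 in edgeR), followed by *Dlx3*, 2.76 ± 0.44 (edgeR adjusted p = 0.000143), and *Runx2*, 2.26 ± 0.22 (edgeR adjusted p = 4.99e-07). The 9 were chosen for their part in this lineage, so that the count is read against the background and not as a sample of genes.

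Between 1–2 and 0 the only factor called was *Sp7*, higher by 1.58 ± 0.21 on the log2 scale (edgeR adjusted p = 0.00515). Few genes of any kind passed there, 0.0684% higher and 0.109% lower. *Runx2* was higher by 0.82 ± 0.22 without passing (edgeR adjusted p = 0.22), although its 95% counting intervals at 1–2 lay above those at 0 in all 3 libraries. Between 3 or more and 1–2, 6 factors were higher and 0 lower, against 5.77% and 3.88% of all genes. They were *Sp7* (log2 2.41), *Dlx3* (2.12), *Runx3* (1.52), *Runx2* (1.45), *Dlx5* (1.10) and *Dlx6* (0.84). The *Dlx6* call was lost without control 1 (edgeR adjusted p = 0.0864) and without control 2 (edgeR adjusted p = 0.0507). Over 14 alternative settings the call held in 8 for *Dlx6* and in 11 for *Runx3*, which lost it with thinned cells and with either other choice of staging genes.

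The other RUNX factors also rose between 0 and 3 or more. *Runx3*, known from chondrocytes, sensory neurons and T cells, stood at 4.56, 6.96 and 6.69 CPM at a count of 0 and at 23.8, 46.2 and 20.4 at 3 or more, a difference of 2.17 ± 0.21 on the log2 scale (edgeR adjusted p = 3.63e-07). Its levels at 3 or more lay above those at 1–2 (7.31, 12.3 and 9.30) in every library. *Runx1*, a factor of blood formation that is also expressed in skeletal progenitors, moved over a narrower range, from 30.4, 45.9 and 50.8 CPM through 42.9, 59.6 and 66.4 to 55.6, 77.4 and 72.6. Its difference between 3 or more and 0 was 0.75 ± 0.11 (edgeR adjusted p = 7.60e-05), and control 1 was the lowest library at each step. At 0 and at 1–2 *Runx1* was above *Sp7* in every library.

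For *Dlx5* and *Dlx6* the 2 controls differed from each other by more than either differed along the staging count. *Dlx5* stood at 50.2, 16.4 and 12.3 CPM at a count of 0 and at 114, 34.0 and 33.4 at 3 or more, higher by 1.32 ± 0.13 on the log2 scale (edgeR adjusted p = 3.60e-07). *Dlx6*, its neighbour on the chromosome, stood at 26.0, 8.54 and 3.25 CPM and then at 52.8, 6.79 and 5.73, so that it was higher in control 1 and the mutant and lower in control 2. The fit gave 0.87 ± 0.20 for *Dlx6* (edgeR adjusted p = 0.00412), and 0.63 without control 1 (edgeR adjusted p = 0.153).

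*Dlx3*, a factor of hair, tooth and bone, was sparse: 64, 12 and 10 UMIs (7.29, 0.949 and 0.50 CPM) at a count of 0 and 30, 11 and 108 UMIs (14.3, 14.9 and 10.7 CPM) at 3 or more. The libraries met at the last step and were far apart at the first, where control 1 was the high one. The rise reached 1.96, 15.7 and 21.3 times in the same order.

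Control 1 was also the high library for some related homeobox genes, but not for all. *Dlx4*, which lies beside *Dlx3*, stood at 8.93, 0.189 and 0.0531 CPM over all mesenchyme and *Msx1* at 51.3, 14.8 and 17.8. *Dlx1* was lowest in control 1, at 46.2, 55.7 and 46.9 CPM, and *Alx4* was highest in the mutant, at 12.2, 3.27 and 15.1. Over all mesenchyme control 1 exceeded control 2 by 4.88 times for *Dlx3*, 3.68 times for *Dlx5* and 3.95 times for *Dlx6*. The cells of control 1 were also the deepest, and the part of depth in these values was not tested.

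*Msx2* and *Atf4* did not pass in any step. *Atf4* held 221, 171 and 199 CPM at a count of 0 and 189, 215 and 187 at 3 or more, with overlapping libraries and a fitted difference of 0.06 ± 0.11 on the log2 scale (edgeR adjusted p = 0.760). It was the most abundant of the 9 at a count of 0. *Msx2*, a homeodomain factor of the skull sutures and of early osteogenic mesenchyme, went from 19.8 to 35.7 CPM in control 1 and from 8.22 to 23.1 in control 2, but from 30.2 to 17.7 in the mutant. The fit over the 3 libraries therefore gave 0.11 ± 0.26 (edgeR adjusted p = 0.833), and the fit without the mutant gave 1.12 (edgeR adjusted p = 0.000530). The difference between libraries was not tested.

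**Figure D2:**
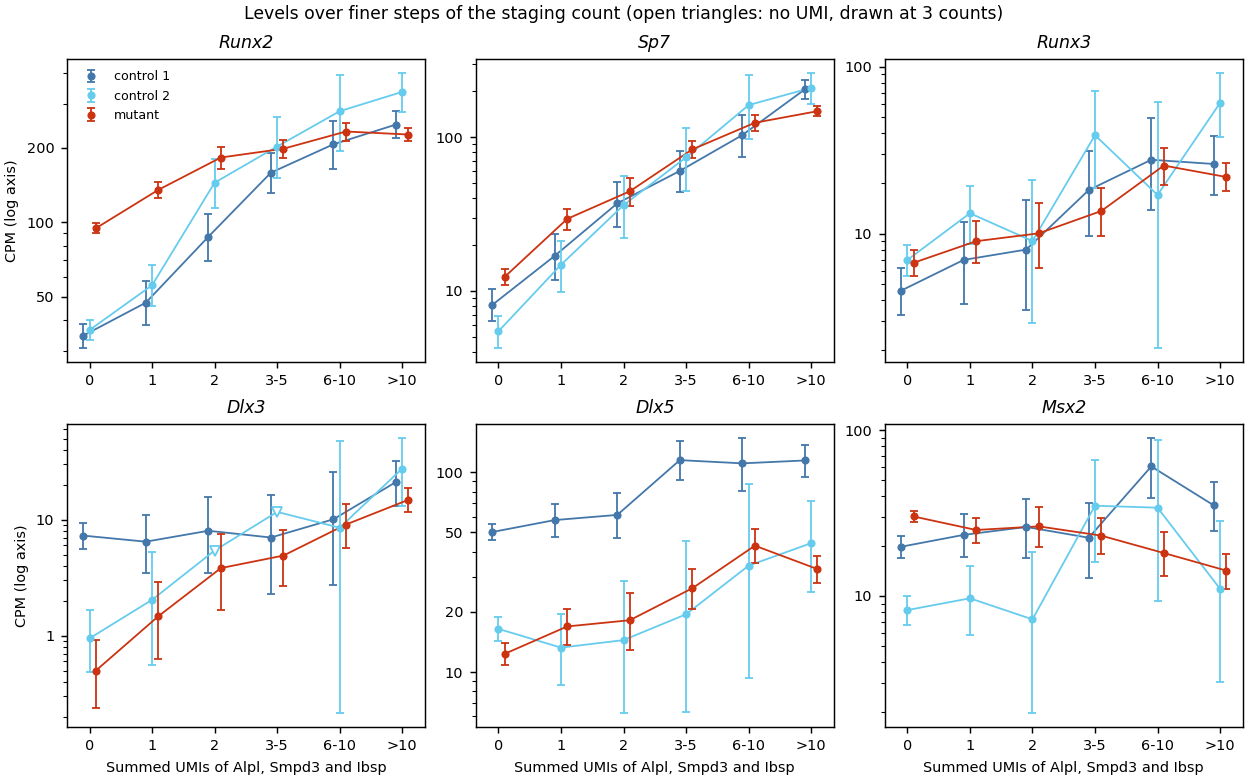
Level of *Runx2*, *Sp7*, *Runx3*, *Dlx3*, *Dlx5* and *Msx2* (CPM, log axis) over 6 steps of the staging count. The steps are 0, 1, 2, 3–5, 6–10 and over 10, with 1 line for each library and exact 95% Poisson intervals. Open triangles mark no UMI and are drawn at 3 counts. *Sp7* is higher at each step in all 3 libraries, while *Runx2* in the mutant goes from 94.5 to 183 by the third step and ends at 226.

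Over 6 finer steps *Runx2* in control 1 read 34.7, 47.2, 87.3, 159, 207 and 248 CPM, and in control 2 36.6, 55.6, 145, 202, 281 and 337. In the mutant it read 94.5, 135, 183, 198, 233 and 226, so that its values above 2 lay close together. *Sp7* ended at 205, 209.9 and 148 CPM at counts above 10, with the mutant below both controls there and above both at counts up to 5. The control 2 steps above 2 held only 27, 13 and 27 cells.

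As an order of appearance, the share of the log2 rise already reached at 1–2 was computed for each library. It was 37.9%, 38.0% and 43.4% for *Sp7*, 30.8%, 35.3% and 53.4% for *Runx2* and 28.6%, 30.2% and 29.4% for *Runx3*. *Runx1* had 56.9%, 49.99% and 75.2%, over a small rise. No common order was found for the DLX genes: *Dlx5* had 19.3% and 33.8% in control 1 and the mutant and was lower at 1–2 than at 0 in control 2. In cells thinned to 2500 UMIs the share for *Sp7* was 52.9%, 60.9% and 64.6% and that for *Runx2* 70.02%, 33.1% and 55.1%, so that the order of the pair depended on the library. Thinned *Runx3* had 99.0%, 54.4% and 66.9%. Thinned *Runx1* had 50.5% and 74.0% in control 2 and the mutant. In control 1 it was lower at 3 or more than at 0 (log2 −0.96), but only 2 of 43 thinned cells at 3 or more had a *Runx1* UMI. The thinned control values at 3 or more rest on 43 and 30 cells, and no order held over the 3 libraries.

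The share of cells with a UMI moved the same way. At a count of 0, 18.7%, 12.7% and 25.8% of cells had a *Runx2* UMI (8.0%, 8.05% and 18.4% after thinning), and at 3 or more 86.9%, 91.0% and 83.6% (41.9%, 56.7% and 41.4%). In myeloid cells, which should lack it, the share was 3.03%, 2.06% and 1.41%, and 0 after thinning. For *Sp7* the share rose from 5.40%, 2.46% and 5.11% through 15.3%, 9.31% and 19.3% to 66.9%, 62.7% and 74.9%, and was 0 of 33, 97 and 142 myeloid cells (exact upper 95% limits 10.6%, 3.73% and 2.56%). The myeloid cells had median depths of 11067, 5299 and 5157 UMIs.

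*Runx2* and *Sp7* were also found in the same cells. Among thinned mesenchymal cells with an *Sp7* UMI, 41.5% (28.1–55.9), 27.0% (16.6–39.7) and 38.5% (33.4–43.8; exact 95% binomial intervals) had a *Runx2* UMI. Among those without one, 9.87%, 8.76% and 20.1% did, below the interval in each library. *Atf4* was no such partner: 45.3%, 39.7% and 35.9% of cells with *Sp7* and 41.7%, 33.0% and 38.5% of those without had an *Atf4* UMI. For the *Dlx5* and *Dlx6* pair, 11.8%, 9.52% and 4.81% of cells with *Dlx5* had *Dlx6*, against 5.88%, 1.68% and 0.853% of the rest. Cells of 1 library are not replicates, and these shares are descriptions.

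**Figure D3:**
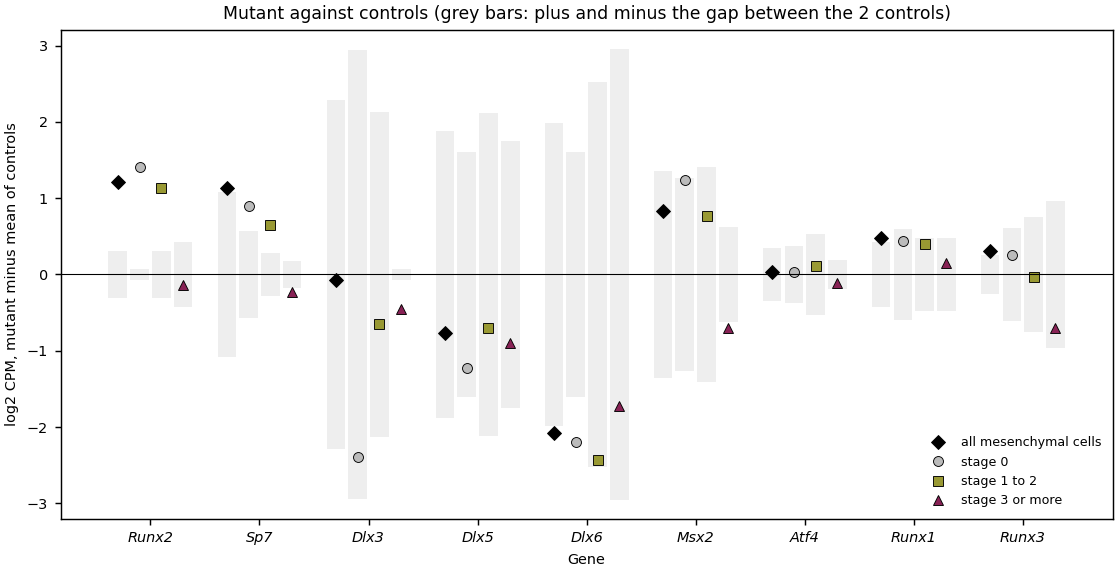
Log2 of the mutant's CPM over the mean log2 CPM of the 2 controls, for the 9 factors over all mesenchyme and at each staging count; the grey bars around 0 show plus and minus the gap between the 2 controls. *Runx2* lies above its grey bar except at a count of 3 or more, and *Dlx5* and *Dlx3* lie within theirs over all mesenchyme.

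The mutant was then set against the controls. With 1 mutant library there is no test, so a rule was used among genes with a mean of at least 10 CPM. A gene was called when the mutant lay outside both controls and its ratio to their mean log2 CPM was large enough. That ratio had to exceed both the gap between the controls and 1.5-fold, so the mutant need not clear the nearer control by the gap. In all mesenchyme 1.57% of 8465 genes were called above and 3.93% below. Of the 9 factors 7 passed the level filter, *Dlx3* and *Runx3* being too low; 2 were above and 1 below.

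*Runx2* stood at 66.9, 54.0 and 139 CPM, 2.31-fold higher in the mutant (log2 1.21, with a gap of 0.31 between controls). *Sp7* stood at 31.0, 14.6 and 46.6 CPM, 2.19-fold higher (log2 1.13), which passed the gap of 1.09 narrowly. *Dlx6* stood at 31.8, 8.05 and 3.80 CPM, 4.22-fold lower (log2 −2.08 against a gap of 1.98), again narrowly. Against control 1 alone the log2 ratio was 1.06 for *Runx2*, 0.59 for *Sp7* and −3.07 for *Dlx6*, and against control 2 alone it was 1.36, 1.68 and −1.08.

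The other factors were not called on this scale. *Dlx5* (61.8, 16.8 and 19.0 CPM) and *Msx2* (23.2, 9.06 and 25.9) had a mutant value near or within the spread of the controls, as did *Atf4* (216, 170.4 and 196). *Runx1* (36.9, 49.6 and 59.8 CPM) was above both controls, 1.40-fold over their mean on the log2 scale, which is under the 1.5-fold rule; with TMM factors it was called above (log2 0.61, gap 0.34). In sums over all mesenchyme such as these, taken by themselves, more cells of a type and more RNA per cell cannot be told apart.

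The 2 higher factors parted once the shares of the staging counts were held fixed. Other parts of the mix of cells were not held fixed. Each staging count was weighted by its mean share of the mesenchymal UMIs, not of the cells, in the controls. So weighted, *Runx2* stood at 56.9, 68.0 and 117 CPM, 1.88-fold higher in the mutant. *Sp7* then stood at 23.7, 22.9 and 27.4 CPM, a ratio of 1.17 that was under the 1.5-fold rule. The log2 ratio of *Sp7* thus went from 1.13 to 0.23 and that of *Runx2* from 1.21 to 0.91.

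At a count of 0, *Runx2* was 2.65-fold higher in the mutant (log2 1.41, gap 0.08) and *Dlx6* was lower (log2 −2.2, gap 1.61); 1.18% of 8479 genes were called above there and 4.51% below. *Sp7* was under the 10 CPM filter there, with 8.09, 5.46 and 12.3 CPM. At 1–2 *Runx2* was 2.2-fold and *Sp7* 1.57-fold higher, against 2.0% of 8485 genes above and 5.06% below. At 3 or more 6.29% of 8176 genes were above and 4.11% below. *Msx2* was called there, at 35.7, 23.1 and 17.7 CPM and 1.62-fold lower in the mutant. It passed the gap narrowly (log2 −0.70 against 0.63). *Runx2* lay between the controls there and *Sp7*, with 137, 155 and 124 CPM, was lower by less than 1.5-fold.

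*Runx2* outside mesenchyme varied by class. In all other cells together it stood at 16.7, 29.99 and 60.6 CPM, and in epithelial-like cells at 18.9, 42.2 and 102. In myeloid-like cells it was at 2.42, 3.23 and 2.47 and in myogenic-like cells at 2.81, 2.92 and 0.875, so that it was low there in every library. In endothelial-like cells it stood at 49.8, 1.25 and 2.77 (25 cells in control 1), in neuronal-like cells at 8.56, 11.7 and 11.1, and in chondrocyte-like cells at 82.9, 372 and 65.5, the control values of the last resting on 8 and 2 cells. In glial-like cells it stood at 34.6, 43.8 and 78.8 and in erythroid-like cells at 10.99, 15.5 and 82.0. The mutant was thus the high library in the epithelial-, glial- and erythroid-like cells and not in the other classes named here. *Sp7* in epithelial-like cells stood at 4.65, 6.50 and 19.7. In all cells outside mesenchyme together *Sp7* stood at 6.44, 5.28 and 11.8 CPM, *Dlx5* at 8.16, 3.80 and 16.3 and *Dlx6* at 4.29, 3.91 and 8.47. The mutant was the high library for each of these, so that *Dlx6* went the other way from mesenchyme.

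**Figure D4:**
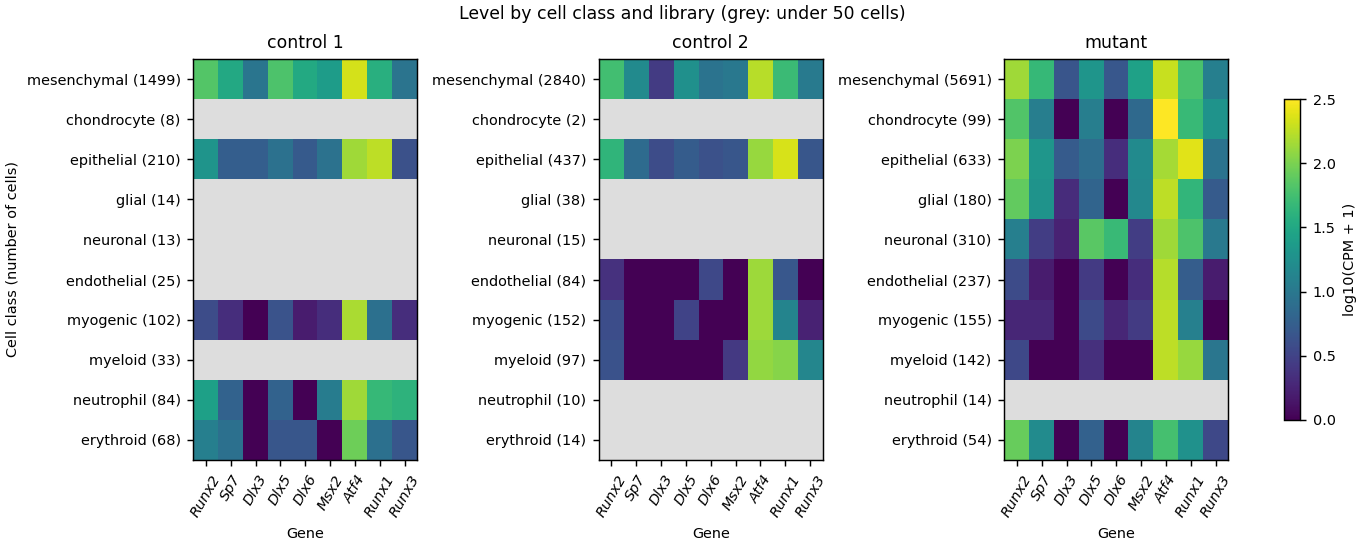
Level of the 9 factors as log10(CPM + 1), by colour, in each named class of cells (rows, with the number of cells) and each library (panels); classes with under 50 cells are grey. *Runx1* is brightest in epithelial-like cells, where it stands at 177, 223 and 242 CPM, and *Dlx5* and *Dlx6* reach 72.0 and 48.2 in the neuronal-like cells of the mutant.

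Outside the skeletal lineage the RUNX factors split by class. *Runx1* stood at 177, 223 and 242 CPM in epithelial-like cells (210, 437 and 633 cells), above its mesenchymal level in every library, and at 79.7, 109.7 and 129 in myeloid-like cells. *Runx3* was highest in neutrophil-like cells, at 40.7, 119 and 94.5 CPM, over only 84, 10 and 14 cells. *Dlx5* and *Dlx6* stood at 72.0 CPM (194 UMIs) and 48.2 CPM (130 UMIs) in 310 neuronal-like cells of the mutant, above their mesenchymal level there. The controls held only 13 and 15 such cells.

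Mesenchymal cells were split into 11 sub-clusters without using the 9 factors or the staging genes. Names such as midline-like come from marker lists, and the other sub-clusters are called by their leading genes.

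*Runx2* was highest in 2 sub-clusters, one led by *Ibsp*, *Smpd3*, *Ifitm5* and *Sgms2*, at 139, 273 and 218 CPM, and one led by *Matn4*, *Msx2* and *Mia*, at 151, 188 and 169.9. The first was the higher in control 2 and the mutant and the second in control 1. *Sp7* separated these sub-clusters: it stood at 88.5, 135 and 144 CPM in the first and at 26.6, 0 and 13.1 in the second, on 3, 0 and 14 UMIs; a count of 0 in control 2 allows up to 23.5 CPM (3 counts). *Msx2* was the reverse, at 61.5, 24.3 and 20.1 CPM in the first and 97.6, 235 and 202 in the second. The second held 16, 38 and 382 cells, so that its control values rest on few. After these 2 came the sub-cluster led by *Tfap2b* and *Alcam*, with *Runx2* at 124, 73.8 and 168 CPM over 74, 358 and 1279 cells. It held 2967 *Runx2* UMIs in the mutant, against 998 in the first and 182 in the second.

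*Runx2* and *Sp7* were low in midline-like cells (*Runx2* at 4.93, 10.98 and 14.6 CPM). They were also low in perimysial-like cells, the mesenchyme around the muscle (*Runx2* at 14.4, 22.0 and 23.8). *Dlx5* and *Dlx6* were present in perimysial-like cells, where the controls were close: 57.6 and 65.1 CPM against 25.8 in the mutant for *Dlx5*, and 38.3 and 36.8 against 18.4 for *Dlx6*. The mutant was above both controls for *Runx2* in 8 of 11 sub-clusters and below both in 0. For *Dlx6* it was below both in 7 and for *Dlx5* in 6, and control 1 exceeded control 2 for *Dlx5* in 9.

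Likeness was read across 25 sums, for each library and mesenchymal staging count and each library and other named class of at least 50 cells. Among 14625 genes the one most like *Runx2* was *Sp7* (Pearson r = 0.945), followed by *Mme* (0.937), *Col6a3* (0.928) and *Cpne5* (0.928). The gene most like *Sp7* was *Pth1r*, the parathyroid hormone receptor (0.945), then *Runx2* and *Tcf7* (0.924). Of the other factors *Msx2* was closest to *Runx2* (0.889) and *Atf4* farthest (0.255). The 25 points share 3 libraries and mix mesenchymal with other cells, so these values are descriptions.

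Other genes of the pathway were read by lists, each to be set against the 10.7% of all genes higher and 8.66% lower between 3 or more and 0. Of 8 partners and modifiers of RUNX2, all of them tested, 3 were higher at 3 or more than at 0 and 1 was lower, and their median log2 difference was 0.10 against −0.01 over all genes. Among the higher ones were the Notch target *Hey1* (log2 1.25) and the chondrocyte factor *Sox9* (0.35), and the lower one was *Twist2*, an inhibitor of RUNX2 (−0.58).

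Of 8 relatives of the DLX and MSX genes 7 had enough UMIs to be tested, and 2 were higher, *Alx4* among them (log2 1.19), and 1, *Msx1*, was lower (−0.61), against the same 10.7% and 8.66%; their median was −0.34. Of 13 bone matrix genes 9 could be tested, and 5 were higher and 0 lower (10.7% and 8.66% of all genes; median 0.53): *Ifitm5* by 6.14, *Omd* by 1.59 and *Col1a1*, *Sparc* and *Col1a2* by 0.29 to 0.37. *Ifitm5*, a membrane protein of mineralising osteoblasts, stood at 103, 236 and 283 CPM at 3 or more. Genes of late mineralising cells were scarce, and *Bglap*, *Bglap2*, *Dmp1* and *Mepe* had too few UMIs to be tested. The osteopontin gene *Spp1* was found there mainly in control 1, at 71.8, 0 and 3.26 CPM, where the 0 allows up to 4.07 (3 counts).

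Of 10 targets of ATF4, 9 could be tested, and 4 were higher and 0 lower (10.7% and 8.66% of all genes; median 0.65), although *Atf4* itself did not pass. They were *Phgdh*, *Asns*, *Psat1* and *Mthfd2*, enzymes of serine, asparagine and one-carbon metabolism, with log2 differences of 0.89 to 1.11.

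Markers of other cells moved both ways with the staging count. The 6 erythroid markers went from 3139, 957 and 1011 CPM at a count of 0 to 2667, 717 and 760 at 3 or more. The 4 mural markers went from 55.4, 37.9 and 36.1 to 25.7, 25.8 and 27.2. The 6 myogenic markers went from 96.7, 19.1 and 7.49 to 83.7, 9.51 and 3.36. The 5 neuronal markers summed to 41.0, 7.27 and 18.1 CPM at a count of 0 and to 127, 74.7 and 110.3 at 3 or more, led by *Stmn2*. The 5 chondrocyte markers went from 67.9, 59.8 and 111 CPM to 94.1, 243 and 172, led by *Col2a1*, with *Matn1* at 0 in both controls. In the mutant the 5 endothelial markers went from 4.90 to 38.5 CPM and the 4 epithelial markers from 11.04 to 44.0, while they went from 14.8 to 13.3 and from 38.3 to 39.9 in control 1 and from 10.52 to 5.43 and from 26.6 to 31.2 in control 2. The 6 myeloid markers went from 48.8, 19.4 and 4.10 CPM to 44.7, 14.9 and 17.0. The 5 glial markers went from 11.2, 8.54 and 10.49 CPM to 5.23, 5.43 and 24.0. The endothelial, epithelial, myeloid and glial lists were thus all higher at 3 or more in the mutant. The part of any of these lists in the results at 3 or more was not tested.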

How the data were processed

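Single-cell suspensions of E14.5 soft palate were sequenced as 10x 3′ v2 libraries. The deposited matrices hold raw UMI counts per gene and barcode, 1 for each library and without normalization; the authors ran Cell Ranger (version 4.0.0 in the protocol text, 3.1.0 in the submitters' processing notes; build mm10 in the notes). The authors' pooling of the controls and their integration are not part of these counts. Library groups were taken from the labels.

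Cells needed 500 genes or more, and no more than 10% of their UMIs from mitochondrial genes. Scrublet scores were cut at a preset doublet rate of 0.8% per 1000 barcodes, since its own threshold called almost none. Controls and mutant were integrated in Seurat 5.3.0 (2000 variable genes less the 9 factors and the staging genes, 30 components, resolution 0.5, and 0.4 for mesenchyme). Clusters were named by at least 3 markers, under a rule settled after the clusters were seen, so that names are rebuilt and may differ from the study's.

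UMIs were summed over cells and given as CPM with exact 95% Poisson intervals, or as shares with exact (Clopper-Pearson) binomial intervals; both cover counting error only. Steps of the staging count were tested by edgeR 4.0.16 (quasi-likelihood, TMM, at least 30 UMIs over the 9 sums, library as a term), with Benjamini-Hochberg adjustment at 0.05; the staging genes were left out of these results. The mutant was compared by its log2 CPM less the average of both controls, with a count of 0 set to 3. Scripts were tested on simulated data in R 4.3.3 and Python 3.11.15. The alternatives were DESeq2 1.42.0, other scaling, filters, staging genes and cell choices, thinning, and leaving out each library. The 9 factors and the gene lists were chosen with earlier results of these data known. Named genes are the 9, the called members of each list and the genes most like *Runx2* and *Sp7* by Pearson r of log2(CPM + 1). A few others (*Dlx1*, *Dlx4*, *Spp1*) were chosen after their values were seen. Some called list members are not reported here.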

Additional observations from a re-analysis of the deposited data

Results flagged for a closer look

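*Msx2* moved in opposite directions along the staging count in the 2 genotypes. Between 3 or more and 0 staging UMIs its log2 CPM differed by 0.85 in control 1 and 1.49 in control 2, and by −0.77 in the mutant. The mutant started above both controls (30.2 CPM against 19.8 and 8.22) and ended below both (17.7 against 35.7 and 23.1). With 1 mutant library the difference was not tested. In the mutant 382 cells lay in the sub-cluster led by *Matn4* and *Msx2*, where *Msx2* stood at 202 CPM, against 16 and 38 cells in the controls, and the part of that sub-cluster in the difference was not tested.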

How the results depend on the processing

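No value turned its direction past the threshold under any alternative. Between 3 or more and 0, 7 factors were called, and 6 to 8 when 1 library was left out; the count stayed within 1.5 times in each of 14 alternatives. Calls were lost for *Dlx6* in 4 of 14 alternatives and for *Runx1* in 1. Between 1–2 and 0, *Sp7* was called in 14 of 14 and *Runx2* in 5 of 14.

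The factors called between 1–2 and 0 went from 1 to 2 without a low-count filter and to 4 each with thinned cells, with staging by *Phex*, *Ifitm5* and *Omd*, and with staging by *Alpl* alone (1 to 2 when 1 library was left out, 2 of them without the mutant). For all genes there the main 10 higher and 16 lower became 59 and 86 without a filter, 98 and 82 with thinned cells, 106 and 59 with the other 3 staging genes and 154 and 123 with *Alpl* alone. Higher calls were 19 with cells chosen by marker UMIs and 17 with doublets kept, and lower calls were 9 in DESeq2. Leaving out 1 library gave 1 to 18 higher and 0 to 26 lower, the lowest without control 2 and the highest without the mutant; at an unadjusted p under 0.05 the main fit held 819 genes.

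Between 3 or more and 1–2, the 6 factors became 2 with *Alpl* alone and 4 to 8 when 1 library was left out. The 844 higher and 568 lower genes became 421 and 370 with thinned cells, 551 and 293 with the other staging genes, 129 and 60 with *Alpl* alone, and 374 lower in DESeq2; leaving out 1 library gave 336 to 704 and 185 to 422, lowest without control 2. Between 3 or more and 0, the 1570 higher and 1266 lower became 812 and 834 with thinned cells and 801 lower in DESeq2; leaving out 1 library gave 1022 to 1455 and 761 to 1120, lowest without control 2. The cause was not tested.

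For the mutant, the 2 factors above became 1 with the mean over cells of per-cell CPM, 1 with stages weighted to the controls' shares, and 3 with TMM factors, where *Runx1* was added, and the 1 below became 0 with TMM factors and 0 with the mean over cells. *Runx2* was called above in 8 of 8 alternatives, *Sp7* in 6 and *Dlx6* below in 6. All genes above went from 133 to 215 and those below from 333 to 187 with TMM factors, which moved the median of all genes from −0.05 to 0.07 (log2), and those below to 538 with thinned cells. The call needs both controls, so no count was made with 1 left out. Of the single-factor values, 346 kept their side of the stage test, 14 newly passed and 17 no longer did.

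No paired analysis was possible because the groups compared share fewer than 2 replicate numbers. The 67 cells of control 2 with at least 3 staging UMIs limit every value there, such as *Dlx6* on 5 UMIs and *Dlx3* on 11.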
